A study of Mus musculus with 21 samples.

Results

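The BCL2 family decides whether a mitochondrion releases the proteins that start cell death, and 10 of its genes were followed here by their GENCODE symbols, out of 56953 genes counted, in all 21 libraries of sorted peritoneal B cells. They are 4 pro-survival genes (Mcl1, Bcl2, Bcl2l1 and Bcl2a1b), 2 effectors (Bax and Bak1) and 4 BH3-only genes (Bid, Bcl2l11, Bbc3 and Pmaip1). All 10 passed the filter on low counts in every comparison.

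The effectors BAX and BAK1 form pores in the outer mitochondrial membrane. Pro-survival proteins bind and hold them back, and BH3-only proteins, which sense growth factor loss, DNA damage or death receptor signals, free or activate the effectors. In B cells the survival signals of the B cell receptor and of the cytokine BAFF act in part through this family. B-1 cells are long-lived innate-like B cells of the body cavities that renew themselves, and B-2 cells are the conventional B cells.

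TET2 oxidizes methylated cytosine in DNA. The TET2-KO mice lacked exons 8 to 10 of Tet2, the part that encodes its catalytic region, in all tissues, so that cells around the B cells lacked it too, and both genotypes were C57BL/6. The age of the mice is not given in the labels. The peritoneal cells were sorted without treatment into B-1a (4 libraries of WT, 4 of TET2-KO), B-1b (4 and 3) and B-2 (2 and 4), with surface CD5 setting B-1a apart from B-1b. The labels number the libraries of a group, but do not say which animals they came from, so p-values measure the spread between these libraries.

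The libraries held between 9667187 and 24152518 counts (median 17425219). Tet2 was counted at 8.46 to 27.2 CPM (counts of a library scaled to a common depth) in the 10 WT libraries and at 12.6 to 30.3 in the 11 TET2-KO libraries. These are counts over the whole gene, with the exons outside the deletion, so they do not check the genotype labels. Subset labels were compared with profiles of 200 genes by which the TET2-KO subsets differ. Each of the 5 libraries with the label WT 1 or WT 2 correlated best with a subset other than its own (r = 0.44 to 0.90). The other 5 WT libraries correlated best with their own, but B-1b WT 3 and WT 4 only at r = 0.36 and 0.32. Fcer2a, which encodes the B-2 surface protein CD23, was at 815 CPM in the library labelled B-1a WT 1 and at 598 in B-1b WT 2, against 484 to 834 in the TET2-KO B-2 libraries. Cd5 was at 5.15 and 1.64 CPM in the libraries labelled B-1a WT 1 and WT 2, and at 18.7 in that labelled B-1b WT 1, against 15.9 to 21.1 in the TET2-KO B-1a libraries. The same 5 libraries held 6.26 to 11.7 CPM on olfactory receptor genes, which B cells are not known to use, against 72.4 to 1999 in the others. Labels were kept as deposited. The tests that rest on WT libraries are given with and without these 5 libraries, a choice made after the values were seen, while group medians and counts of overlapping ranges use all libraries. The 10 genes of the macrophage list were all counted in every library and summed to between 4337 and 30332 CPM. The other marker lists summed to 6.29 to 75.2 CPM (T cell), 0.34 to 1704 (erythroid), 120.5 to 397 (plasma cell), 84.5 to 192 (cycling cell), 138 to 1054 (B-1 cell) and 588 to 6134 (B-2 cell). In bulk libraries, fewer cells of a type and less RNA per cell cannot be told apart.

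Mcl1, a short-lived pro-survival protein that B cells need at most stages, was by far the highest of the members per length. Its level was 151 to 499.9 FPKM (CPM per kilobase of exon, median 318), and it ranked first of 10 in all 21 libraries. Bax ranked second in all 21 libraries, at 46.7 to 111 FPKM (median 63.6). The other effector, Bak1, was at 0.288 to 1.42 FPKM (median 0.628), ranks 8 to 10, and rested on only 13 to 60 counts a library. The effector genes were thus counted at very different levels, with Bax above Bak1 in every library.

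Among the remaining pro-survival genes, Bcl2a1b was at 9.15 to 30.9 FPKM (median 21.3) and Bcl2 at 9.67 to 19.4 (median 12.8). Bcl2a1b encodes a copy of A1, a protein induced by NF-kB, and Bcl2 the founding member of the family. Bcl2l1, which encodes BCL-XL, was at 0.63 to 1.57 FPKM (median 0.981), ranks 9 to 10. Mcl1 made up 83.6 to 93.4% of the summed FPKM of the 4 pro-survival genes. The Bcl2a1b value is uncertain: 49.1% of its exon bases overlap Gm29094, and 41.1% of its stretches of 100 bases also occur in Bcl2a1a, Bcl2a1d or Gm29094, whose shared fragments the counting left out.

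Of the BH3-only genes, Bid was the highest at 12.2 to 37.3 FPKM (median 27.7). Its protein is cut by caspase 8 and carries a death receptor signal to the mitochondrion. Pmaip1, which encodes NOXA, a partner of MCL1, was at 6.16 to 17.9 FPKM (median 9.90), and Bbc3, which encodes the p53 target PUMA, at 3.89 to 22.8 (median 8.84). Bcl2l11, which encodes BIM, a main driver of lymphocyte death, was the lowest at 1.40 to 5.56 FPKM (median 2.97). The ranks of the members moved by at most 4 places over the 21 libraries. The ratio of summed pro-survival to summed pro-death FPKM was 1.96 to 3.92 in single libraries. It rested mainly on Mcl1, without which it was 0.164 to 0.412. In B-1a cells the ratio with Mcl1 averaged 3.22 ± 0.482 (SD, n = 4) for WT and 3.30 ± 0.913 (n = 4) for TET2-KO. The values were 3.22 ± 0.352 (n = 4) and 2.91 ± 0.380 (n = 3) for B-1b, and 3.16 ± 0.650 (n = 2) and 2.56 ± 0.374 (n = 4) for B-2. These group means differed by less than the spread between libraries in B-1a and B-1b cells and had overlapping ranges in B-2 cells, 2.70 to 3.62 in WT and 2.10 to 3.02 in TET2-KO. Of the WT libraries not labelled WT 1 or WT 2, the B-1a libraries were at 3.89 and 3.24, the B-1b libraries at 2.98 and 3.28, and B-2 WT 4 at 2.70.

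**Figure D1:**
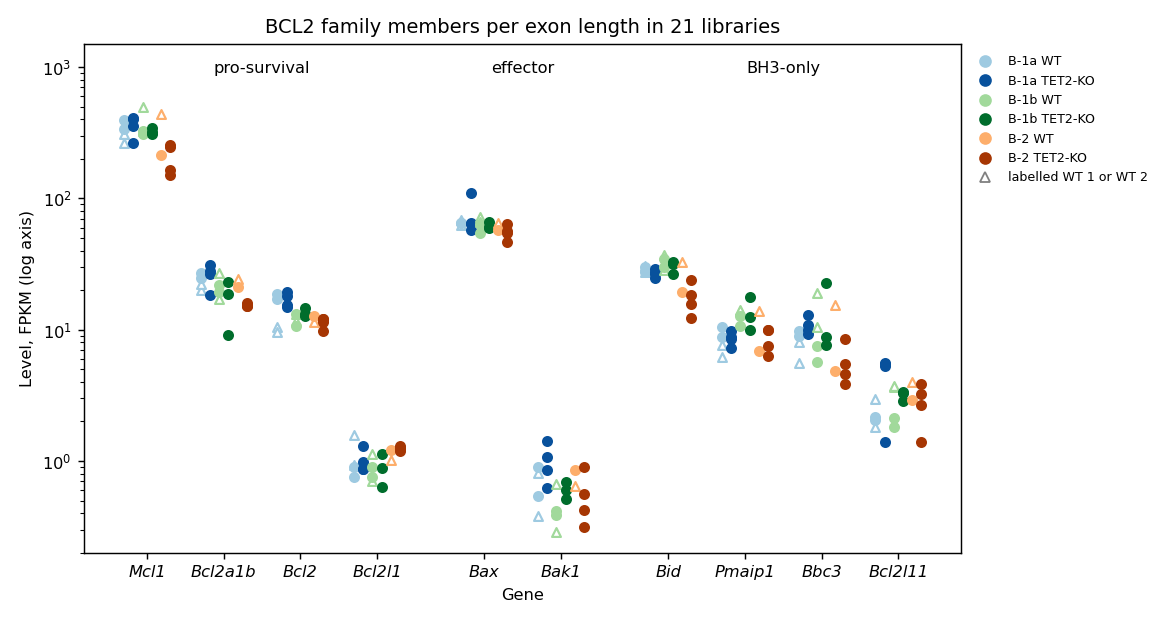
Level of each member in FPKM (log axis), 1 point per library, coloured by subset and genotype and grouped by role, with open triangles for the libraries labelled WT 1 or WT 2. Mcl1 lies above all other members in every library and Bax follows, while Bcl2l1 and Bak1 lie near 1 FPKM.

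The levels of a member mostly overlapped between groups of similar median. When the groups of a member were ordered by their median CPM, the ranges of neighbouring groups overlapped in all 5 pairs for 9 members. The exception was Mcl1, for which TET2-KO B-1b cells lay above TET2-KO B-2 cells without overlap. The same count was not made over all genes. Groups farther apart in this order could lie without overlap, as given below for the TET2-KO subsets. The highest group median was from 1.17 times (Bax) to 2.53 times (Bcl2l11) the lowest. TET2-KO B-1a cells had the highest median for 6 members, among them Mcl1, Bcl2 and Bcl2l11, and TET2-KO B-2 cells the lowest for 6, among them Mcl1, Bid and Bbc3.

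**Figure D2:**
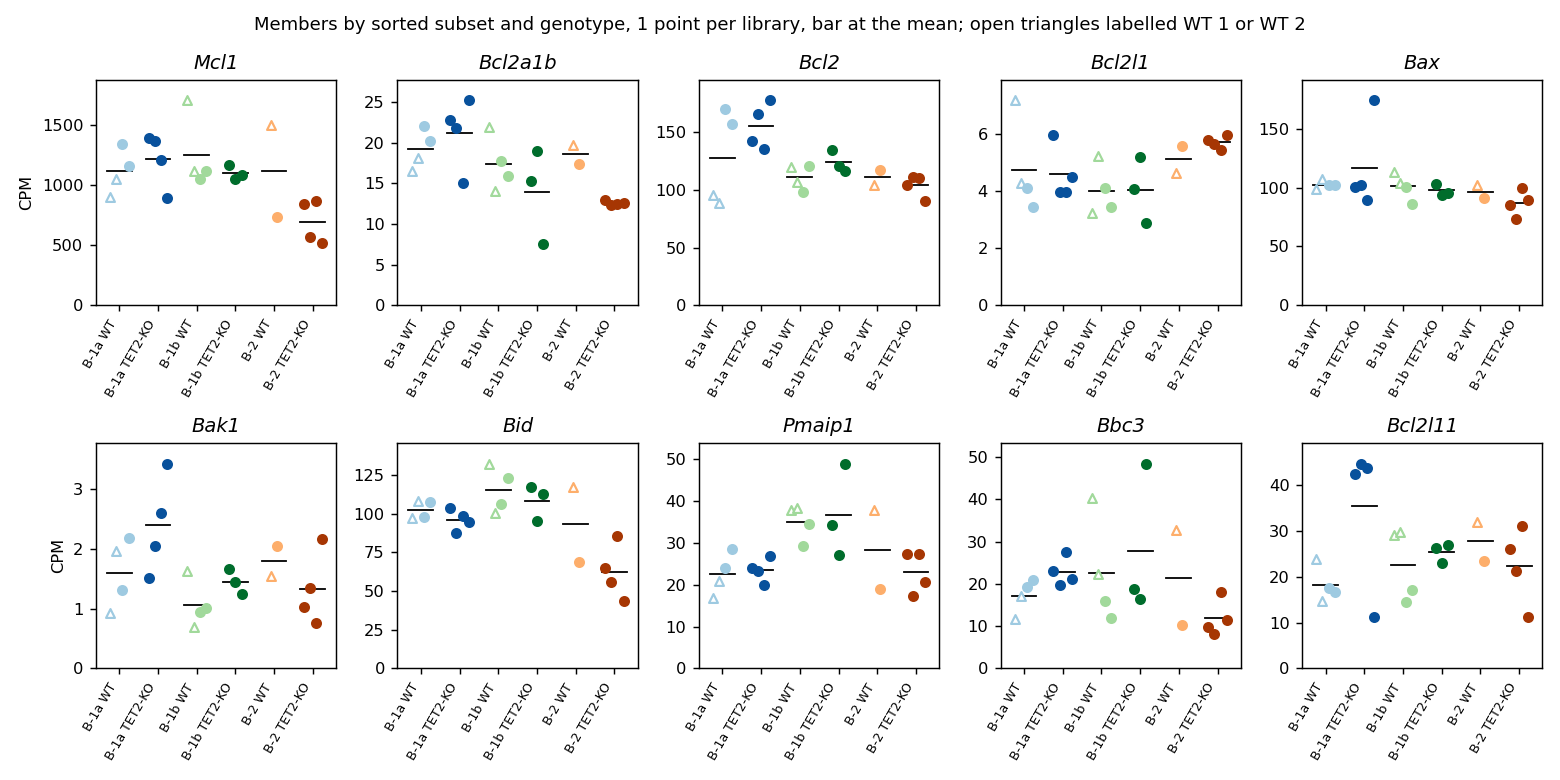
CPM of each member in each library by sorted subset and genotype, with linear axes from 0, a bar at the mean of each group, and open triangles for the libraries labelled WT 1 or WT 2. The 4 TET2-KO B-2 libraries lie below all 4 TET2-KO B-1a libraries for Mcl1, Bcl2a1b, Bcl2, Bid and Bbc3, and 1 TET2-KO B-1a library stands below the others for Bcl2l11.

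The genotype comparison asks what the loss of TET2 does to the transcripts of each sorted subset. In B-1a cells, no BCL2 family member passed the test between genotypes. Of the 10 members, 0 passed at 0.05 after Benjamini-Hochberg adjustment over all genes (quasi-likelihood test of edgeR), where the share over all genes was 0.0503% (7 of 13923), and 1 had an unadjusted p under 0.05. DESeq2 also called 0 members, beside 186 genes in all. The median log2 fold change, TET2-KO over WT, was 0.20 over the members and 0.02 over all genes tested.

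Bcl2l11 was the member with the largest genotype difference in B-1a cells. Its CPM was 42.3, 44.6, 43.7 and 11.3 in the TET2-KO libraries and 23.9, 14.6, 17.5 and 16.6 in the WT libraries. Of the TET2-KO libraries 3 thus lay above every WT library, and TET2-KO 4 lay below them all. The log2 fold change was 1.00 (standard error 0.38, 95% interval 0.16 to 1.84, adjusted p = 0.604 from the quasi-likelihood test of edgeR). It was the 1 member with an unadjusted p under 0.05. It passed only where no filter on low counts was applied (0.94, adjusted p = 0.00601), a setting in which 0.829% of all genes passed. TET2-KO 4 also held the smallest summed CPM of the macrophage list among the B-1a libraries, 4798 against 11244 to 30332 in the other 7, and the part of this in the result was not tested.

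Without the libraries labelled WT 1 and WT 2, Bcl2l11 had a log2 fold change of 1.06 (95% interval -0.11 to 2.24, adjusted p = 0.9997 from the quasi-likelihood test of edgeR). In that comparison 0 of 10 members passed, where 0% of all genes did, and 0 members had an unadjusted p under 0.05. For Bcl2l11 the B-1b log2 fold change was 0.20 with all libraries (95% interval -0.40 to 0.81) and 0.69 without those labelled WT 1 and WT 2 (0.14 to 1.24, adjusted p = 0.999 from the same test). The TET2-KO B-1b libraries held 26.3, 22.9 and 27.0 CPM, and the WT libraries 29.1, 29.7, 14.5 and 17.1, the first pair of which are those labelled WT 1 and WT 2. The B-1a effect less the B-1b effect, an interaction term, was 0.79 for Bcl2l11 (95% interval -0.27 to 1.85).

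The pro-survival genes of B-1a cells differed between genotypes by less than the spread between libraries. Mcl1 was at 1396, 1369, 1213 and 897 CPM in TET2-KO and at 903, 1053, 1345 and 1162 in WT libraries, a log2 fold change of 0.16 (95% interval -0.26 to 0.57). Bcl2 was at 142, 166, 136 and 178 CPM in TET2-KO and at 95.8, 88.6, 171 and 157 in WT libraries. The lower pair of WT values came from the libraries labelled WT 1 and WT 2, and the log2 fold change of 0.31 (95% interval -0.21 to 0.84) became -0.07 (-0.46 to 0.33) without them. Bcl2a1b (0.17) and Bcl2l1 (-0.01) had intervals that included 0.

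Of the death genes in B-1a cells, Bbc3 had a log2 fold change of 0.44 (95% interval -0.03 to 0.91), and Bid of -0.06 (-0.31 to 0.19). Bax was at 100.2, 102, 89.9 and 174.5 CPM in TET2-KO libraries and between 99 and 107 in WT libraries (log2 fold change 0.22, 95% interval -0.25 to 0.69). The high Bax value came from TET2-KO 4, the library that was low for Bcl2l11. For Pmaip1 and Bak1 the log2 fold changes were 0.09 and 0.63, with intervals that included 0. With WT 1 and WT 2 of B-1a cells left out, the log2 fold changes were -0.03 for Mcl1, 0.01 for Bcl2a1b, 0.29 for Bcl2l1, 0.20 for Bbc3, -0.09 for Bid, 0.20 for Bax, -0.15 for Pmaip1 and 0.47 for Bak1, all with intervals that included 0. The ranges of the genotypes overlapped for all 10 members when every library was used, while they did not overlap for 5.55% of all genes.

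**Figure D3:**
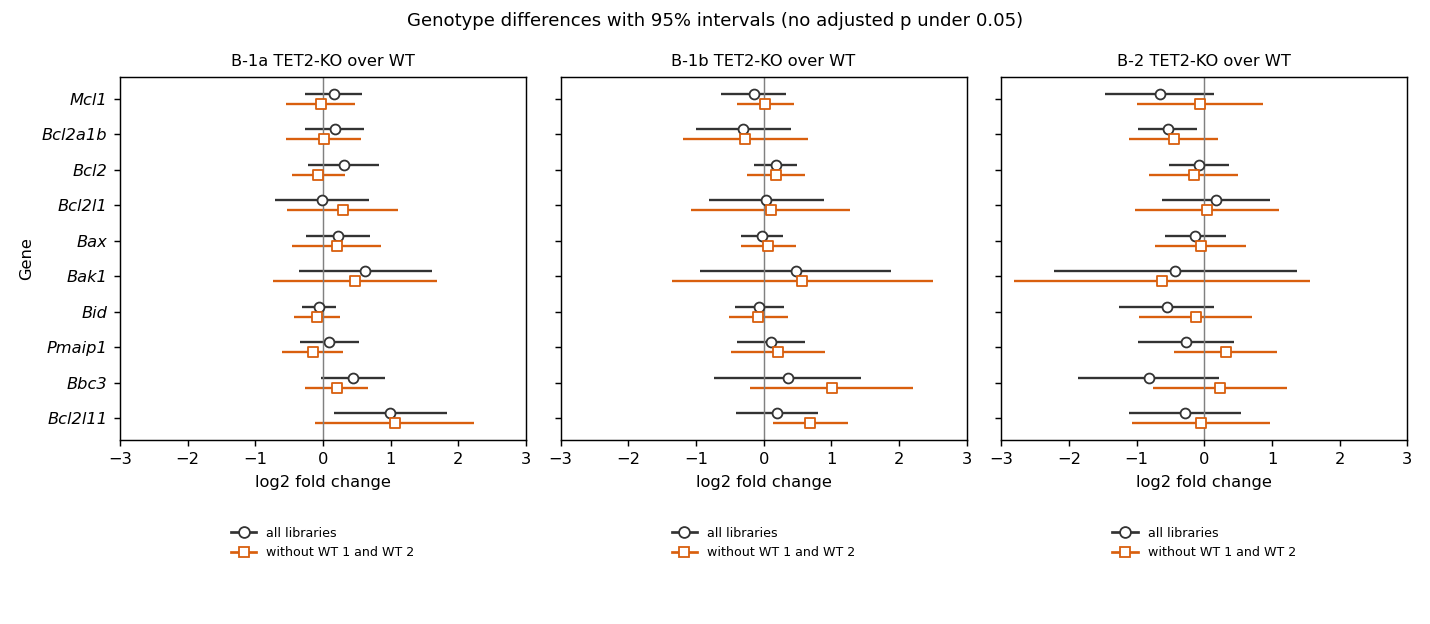
Log2 fold change of TET2-KO over WT for each member, in 1 panel per sorted subset, with bars for 95% intervals, from all libraries (circles) and with those labelled WT 1 and WT 2 left out (squares). No member had an adjusted p under 0.05, and most intervals cross 0.

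In B-1b cells, the members also did not pass. Of the 10 members, 0 passed after adjustment by the quasi-likelihood test of edgeR and 0 reached an unadjusted p under 0.05, where 0% of all 14368 genes passed and 787 had an unadjusted p under 0.05. DESeq2 called 0 members and 60 genes in all. The log2 fold changes ranged from -0.30 for Bcl2a1b (95% interval -1.002 to 0.40) to 0.47 for Bak1 (-0.94 to 1.88), with a median of 0.07 over the members and of -0.01 over all genes. Between these lay Mcl1 (-0.15), Bid (-0.06), Bax (-0.02), Bcl2l1 (0.04), Pmaip1 (0.11), Bcl2 (0.18), Bcl2l11 (0.20) and Bbc3 (0.35). Bbc3 was at 18.8, 16.4 and 48.5 CPM in TET2-KO and at 40.4, 22.3, 16.0 and 12.04 in WT libraries. The high TET2-KO value came from TET2-KO 3, which was also the highest for Pmaip1 (48.9 CPM) and the lowest for Bcl2a1b (7.48 CPM) of all 21 libraries, and in which the macrophage list summed to 6336 CPM against 12927 and 15241 in the other TET2-KO B-1b libraries. The part of that in these values was not tested. The genotypes' ranges overlapped for all 10 members (7.68% of all genes did not overlap). Without the libraries labelled WT 1 and WT 2, 0 of 10 members passed, as did 0% of all genes, and Bcl2l11 was the 1 member with an unadjusted p under 0.05. The log2 fold changes then ranged from -0.27 for Bcl2a1b to 1.01 for Bbc3 (95% interval -0.19 to 2.21).

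No member passed the test of whether its genotype effect differs between the B-1 subsets. Of the 10 members, 0 passed the interaction test of edgeR at an adjusted p under 0.05, 0 had an unadjusted p under 0.05, and 0% of all 15972 genes passed. DESeq2 called 0 members and 1 gene in all. The largest interaction estimates were those of Bcl2l11 and of Bcl2a1b (0.46, 95% interval -0.32 to 1.24). Those of Mcl1 (0.30), Bax (0.23), Bak1 (0.14), Bcl2 (0.12), Bbc3 (0.09), Bid (-0.005), Pmaip1 (-0.02) and Bcl2l1 (-0.06) also had intervals that included 0. Leaving out the doubted WT libraries, 0 members passed and 0 had an unadjusted p under 0.05, where 0% of all genes passed, and the Bcl2l11 estimate was 0.37 (-0.89 to 1.64).

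In B-2 cells, with 2 WT libraries, 9 of 10 members had a lower fitted level in TET2-KO, and none passed. Of the 10 members, 0 passed after adjustment by the quasi-likelihood test of edgeR (0% of all 19786 genes passed) and 1 had an unadjusted p under 0.05, as 1754 genes did. DESeq2 called 0 members and 169 genes in all. The median log2 fold change was -0.36 over the members and 0.18 over all genes tested. Mcl1 was at 839, 565, 868 and 515 CPM in TET2-KO libraries, at 1504 in the library labelled WT 1 and at 737 in WT 4. The log2 fold change of -0.66 (95% interval -1.47 to 0.15) became -0.06 (-0.997 to 0.87) without the library labelled WT 1, which correlated best with TET2-KO B-1b cells. Likewise Bbc3 had -0.82 (-1.87 to 0.22) with and 0.23 (-0.76 to 1.23) without that library, and Bid -0.55 and -0.13. The other log2 fold changes with all libraries were -0.43 for Bak1, -0.29 for Bcl2l11, -0.27 for Pmaip1, -0.13 for Bax, -0.08 for Bcl2 and 0.18 for Bcl2l1, with intervals that included 0.

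Bcl2a1b was the member with an unadjusted p under 0.05 in B-2 cells (adjusted p = 0.531 from the quasi-likelihood test of edgeR). It was at 13.0, 12.3, 12.4 and 12.6 CPM in TET2-KO libraries and at 19.7 and 17.4 in WT libraries, so that the ranges did not overlap. This was 1 of 10 members, where 20.0% of all genes had ranges that did not overlap. Without the library labelled WT 1, its log2 fold change moved from -0.54 to -0.45 (95% interval -1.11 to 0.20), 0 of 10 members passed or had an unadjusted p under 0.05, and 0% of all genes passed. The lone B-2 WT 4 library was then assumed to vary like the TET2-KO libraries.

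The levels by sorted subset were compared within TET2-KO libraries, which all correlated best with the subset on their label, although these libraries had also defined the subset profiles. Between B-1a and B-2 cells, Mcl1 was the member that passed. It was at 1396, 1369, 1213 and 897 CPM in B-1a and at 839, 565, 868 and 515 CPM in B-2 libraries, and every B-1a library was above every B-2 library. The log2 difference, B-1a over B-2, was 0.78 (standard error 0.21, 95% interval 0.32 to 1.23, adjusted p = 0.0432 from the quasi-likelihood test of edgeR), or 1.71-fold higher. Of the 10 members, 1 was called, where 5.82% of all genes were (1080 of 18555). The Mcl1 call depended on single libraries. It held without B-1a TET2-KO 4, B-1b TET2-KO 3 or B-2 TET2-KO 3. It was lost without any other single library of the 11, namely B-1a TET2-KO 1, 2 or 3, B-1b TET2-KO 1 or 2, and B-2 TET2-KO 1, 2 or 4 (adjusted p from 0.0591 to 0.146 by the same test), with 0 members called in each of these fits.

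Further members were higher in all TET2-KO B-1a than in all TET2-KO B-2 libraries without passing. Bcl2 was at 142, 166, 136 and 178 CPM in B-1a and at 105, 111, 110.2 and 90.2 in B-2 libraries (log2 difference 0.55, 95% interval 0.21 to 0.88, adjusted p = 0.0527 by the quasi-likelihood test of edgeR). Bid was at 104, 87.5, 98.5 and 94.3 CPM against 65.0, 56.0, 85.4 and 43.3 (0.59, 95% interval 0.19 to 0.99, adjusted p = 0.0782). For Bbc3 the difference was 0.91 (0.22 to 1.6002, adjusted p = 0.107) and for Bcl2a1b 0.72 (0.15 to 1.28, adjusted p = 0.119). With Mcl1 these were 5 of 10 members without overlap, all higher in B-1a cells, where 19.0% of all genes did not overlap in either direction. Both pro-survival and pro-death genes were among them. The differences of Bak1 (0.81), Bcl2l11 (0.64), Bax (0.39), Pmaip1 (-0.01) and Bcl2l1 (-0.35) had intervals that included 0. The median over the members was 0.61, against -0.05 over all genes tested. DESeq2 called 3 members, Mcl1, Bcl2 and Bid, where it called 14.2% of all genes. Without a filter on low counts, 2 members were called (Mcl1 and Bbc3, where 3.80% of all genes were) and with all 21 libraries in 1 fit 0 (3.45%). The differences also moved with the filter. With at least 10 counts in every library, each member's was lower, as for Mcl1 (0.66), Bcl2 (0.41), Bid (0.48) and Pmaip1 (-0.14).

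The TET2-KO B-2 libraries differed from the B-1a libraries in other respects. They held 269.8 to 1999 CPM on olfactory receptor genes, against 72.4 to 309 in TET2-KO B-1a and 100.1 to 488 in TET2-KO B-1b libraries. B-2 TET2-KO 2 and TET2-KO 4, with the highest of these values, were also the smallest libraries of the series and the lowest for Mcl1 and Bid. Without them (a comparison added after the values were seen) 0 of 10 members were called, where 2.46% of all genes were, and the Mcl1 difference was 0.50 (adjusted p = 0.454 from the quasi-likelihood test of edgeR). The macrophage list summed to 4798 to 28856 CPM in TET2-KO B-1a and to 4337 to 19799 in TET2-KO B-2 libraries. The part of these measures in the differences was not tested.

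Between TET2-KO B-1b and B-2 cells, 0 of 10 members passed, where 2.15% of all genes did (399 of 18555). Bid was at 117, 94.9 and 113 CPM in B-1b libraries, all above the B-2 libraries, with a log2 difference of 0.76 (95% interval 0.33 to 1.19, adjusted p = 0.0682 by the quasi-likelihood test of edgeR). Bbc3 had the largest difference, 1.18 (0.45 to 1.92, adjusted p = 0.0925), with overlapping ranges. Mcl1 was at 1171, 1052 and 1087 CPM in B-1b libraries and differed by 0.62 (0.14 to 1.11, adjusted p = 0.163), and Pmaip1 by 0.62 (0.13 to 1.12, adjusted p = 0.169). The ranges did not overlap for Bcl2, Mcl1 and Bid, which were higher in B-1b cells, and for Bcl2l1, which was lower, 4 of 10 members where 19.3% of all genes did not overlap. Bcl2l1 was at 4.08, 5.19 and 2.89 CPM in B-1b and at 5.80, 5.64, 5.43 and 5.96 CPM in B-2 libraries. The differences of Bcl2 (0.21), Bcl2l11 (0.14), Bax (0.12), Bcl2a1b (0.10), Bak1 (0.09) and Bcl2l1 (-0.54) had intervals that included 0. DESeq2 called 2 members, Bid and Bbc3, where it called 12.1% of all genes. With edgeR, 1 passed without a filter on low counts (Bbc3, where 1.94% of all genes did) and 1 with at least 10 counts in every library (Bid, 3.70%). Without B-2 TET2-KO 2 and TET2-KO 4, 0 members were called, where 0.644% of all genes were.

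Between TET2-KO B-1a and B-1b cells, 0 of 10 members passed, where 0.205% of all genes did (38 of 18555). Here the deviations of libraries that share a number from their group means correlated weakly (r = 0.27, 0.12 and 0.20). With the number as a replicate block, 0 members passed while the share of all genes was 0.555%. The unadjusted p of edgeR's fit was under 0.05 for 2 members without the block (Pmaip1 and Bcl2a1b) and for 3 with it (Bcl2l11 as well). The share of all genes under this cut is not given here. DESeq2 called 0 members and 141 genes. Bcl2l11 was higher in B-1a cells in each of the 3 same-numbered pairs, at 42.3, 44.6 and 43.7 CPM against 26.3, 22.9 and 27.0, while B-1a TET2-KO 4, which has no B-1b library of its number, was at 11.3. Its log2 difference was 0.71 with the block (95% interval 0.29 to 1.13, adjusted p = 0.226 by the quasi-likelihood test of edgeR) and 0.49 without it (-0.36 to 1.34). Bcl2 was higher in every B-1a than in every B-1b library (135, 121 and 116 CPM in B-1b), with a log2 difference of 0.34 (95% interval -0.03 to 0.70). Pmaip1 was lower in every B-1a library, at 23.9, 23.3, 19.8 and 26.9 CPM against 34.2, 27.1 and 48.9, with a log2 difference of -0.63 (-1.13 to -0.14, adjusted p = 0.759). These were 2 of 10 members without overlap, where 6.05% of all genes did not overlap. Without the block, the differences of the other members were 0.73 for Bak1, 0.61 for Bcl2a1b, 0.26 for Bax, 0.19 for Bcl2l1, 0.15 for Mcl1, -0.16 for Bid and -0.27 for Bbc3.

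**Figure D4:**
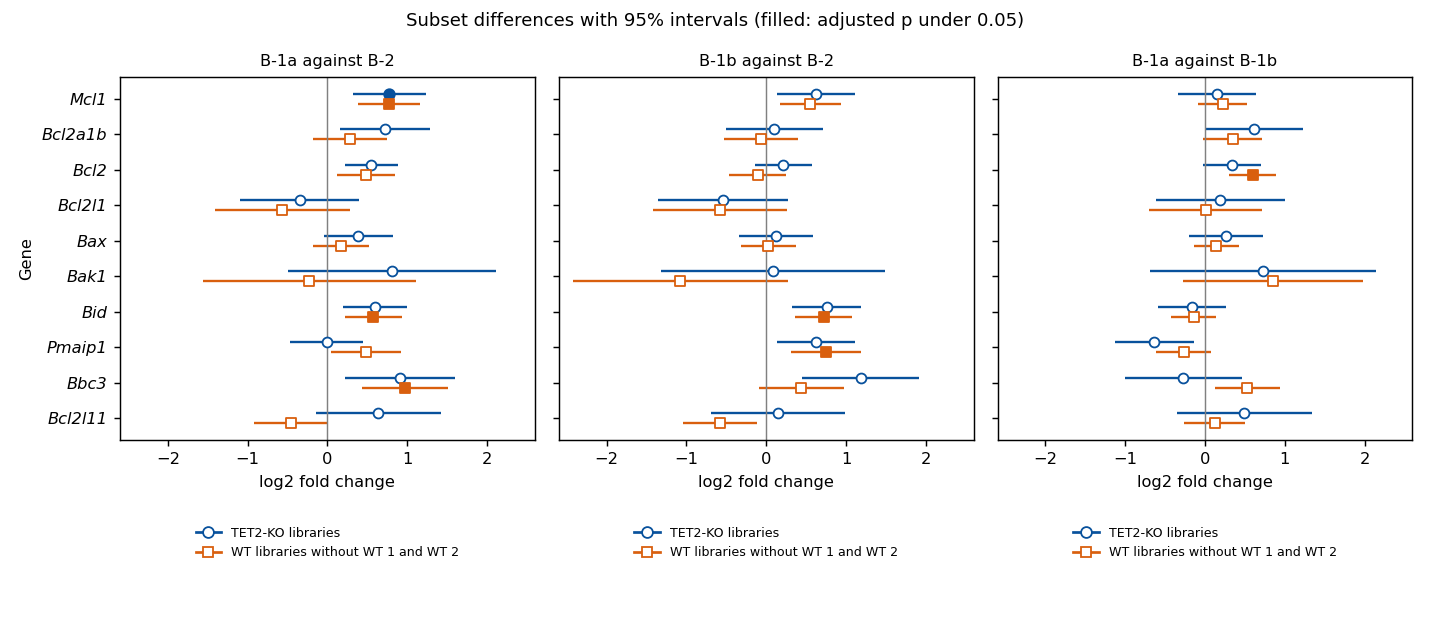
Log2 differences between sorted subsets for each member with 95% intervals, within TET2-KO libraries (circles) and within WT libraries other than those labelled WT 1 or WT 2 (squares), filled where the adjusted p was under 0.05. Mcl1 and Bid lie to the right of 0 in both B-1 subsets against B-2 cells in both genotypes.

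Within WT libraries as labelled, 0 of 10 members passed between any pair of subsets, and 0% of all 16769 genes did in each of the 3 comparisons. An unadjusted p under 0.05 was found for 1 member between B-1a and B-2 cells (Bcl2l11), 0 between B-1b and B-2 cells and 1 between B-1a and B-1b cells (Pmaip1), beside 165, 158 and 206 genes in all. DESeq2 called 0 members in each, and 2, 1 and 0 genes in all. In the same order, the log2 differences were -0.04, 0.13 and -0.17 for Mcl1, 0.15, -0.04 and 0.19 for Bcl2, -0.16, -0.40 and 0.24 for Bcl2l1, and 0.0025, -0.14 and 0.14 for Bcl2a1b. Those of the death genes were 0.10, 0.28 and -0.18 for Bid, -0.65, -0.34 and -0.32 for Bcl2l11, -0.35, 0.04 and -0.39 for Bbc3, -0.36, 0.27 and -0.64 for Pmaip1, 0.04, 0.02 and 0.02 for Bax, and -0.23, -0.80 and 0.58 for Bak1. Pmaip1 was lower in every library labelled B-1a than in every library labelled B-1b, at 16.8, 20.9, 23.99 and 28.6 CPM against 37.8, 38.4, 29.3 and 34.5, as 1.15% of all genes were without overlap in either direction. Its log2 difference of -0.64 (95% interval -1.11 to -0.16, adjusted p = 0.9999 by the quasi-likelihood test of edgeR) included 4 doubted libraries, the first pair of each group. Without the libraries labelled WT 1 and WT 2 it was -0.26 (-0.61 to 0.08, adjusted p = 0.513).

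With WT 1 and WT 2 of each subset left out, the WT comparison held 2 B-1a, 2 B-1b and 1 B-2 library, with 2 residual degrees of freedom, and the lone B-2 WT 4 library was assumed to vary like the others. Between B-1a and B-2 cells, 3 of 10 members then passed, where 7.16% of all genes did, all higher in B-1a cells. These were Mcl1 (1345 and 1162 against 737 CPM, log2 difference 0.77, adjusted p = 0.00888), Bbc3 (19.2 and 20.9 against 10.2, 0.97, adjusted p = 0.0184) and Bid (97.9 and 107 against 69.0, 0.58, adjusted p = 0.0414), by the quasi-likelihood test of edgeR. DESeq2 on the same libraries called 2, Mcl1 and Bid, where 7.40% of all genes passed. The other 7 members ranged from -0.57 (Bcl2l1) to 0.49 (Bcl2). The TET2-KO differences of Mcl1, Bbc3 and Bid were 0.78, 0.91 and 0.59, from other libraries. The kept WT libraries were those that matched the TET2-KO subset profiles. A likeness of the differences between genotypes can thus follow in part from that choice.

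Between WT B-1b and B-2 cells without those libraries, 2 of 10 members passed, where 5.53% of all genes did. Bid was higher in B-1b cells (106 and 123 against 69.0 CPM, log2 difference 0.72, adjusted p = 0.0118) and so was Pmaip1 (29.3 and 34.5 against 18.9 CPM, 0.75, adjusted p = 0.0378). The other 8 ranged from -1.08 (Bak1) to 0.55 (Mcl1). DESeq2 called 2 members there, Bid and Mcl1, where 5.61% of all genes passed. Between WT B-1a and B-1b cells, 1 of 10 passed, where 3.22% of all genes did. This was Bcl2, at 171 and 157 CPM in B-1a against 98.0 and 121 in B-1b libraries (log2 difference 0.60, adjusted p = 0.0149). The other 9 ranged from -0.26 (Pmaip1) to 0.85 (Bak1). DESeq2 also called 1 member, Bcl2, where 3.62% of all genes passed. Removing the doubted labels therefore turned the sign of the WT Mcl1 and Bbc3 differences between B-1a and B-2 cells, which were -0.04 and -0.35 with all WT libraries.

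**Figure D5:**
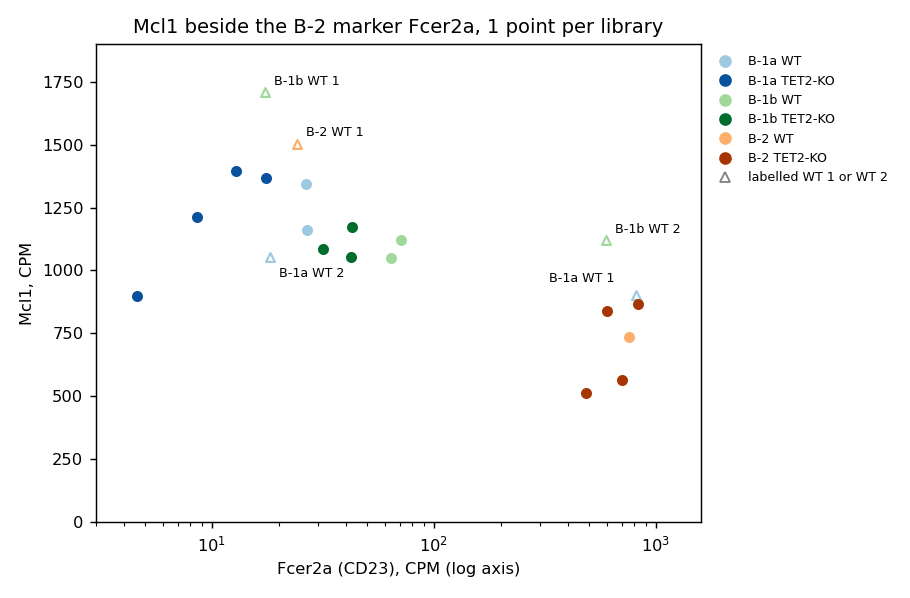
Mcl1 in CPM (linear axis) against Fcer2a, which encodes CD23, in CPM (log axis), 1 point per library, with open triangles and names for the libraries labelled WT 1 or WT 2. The 5 B-2 libraries other than B-2 WT 1 lie at high Fcer2a and low Mcl1, while the library labelled B-2 WT 1 lies with B-1 libraries, at 24.2 CPM of Fcer2a and 1504 of Mcl1.

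Beside Fcer2a, the Mcl1 level of the doubted libraries can be read without their labels. The B-2 libraries other than B-2 WT 1 held 484 to 834 CPM of Fcer2a and 515 to 868 of Mcl1. The library labelled B-1a WT 1, at 815 CPM of Fcer2a, held 903 of Mcl1, and that labelled B-1b WT 2, at 598, held 1120.0. Both thus had Fcer2a at the B-2 level but scaled Mcl1 above all of those B-2 libraries. This order depends on the TMM scaling, with factors of 0.852 and 0.869 here and 1.04 to 1.54 in those B-2 libraries. By unscaled counts, Mcl1 in B-1a WT 1 (18579 of 24152518) was a smaller share than in B-2 TET2-KO 1 (14031 of 15034597). The scaled Bid values of B-1a WT 1 and B-1b WT 2, 97.0 and 100.4 CPM, also lay above those B-2 libraries. The latter held 43.3 to 85.4, with B-2 WT 4 at 69.0. Unscaled, Bid in B-1a WT 1 (1996 of 24152518) and B-1b WT 2 (1882 of 21587020) was a smaller share than in B-2 TET2-KO 3 (1588 of 17903063). The library labelled B-2 WT 1 stood apart from the other B-2 libraries in both genes.

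The genes around the family were taken from 4 lists of 62 genes: the other BCL2 family genes (15), caspases and the mitochondrial death pathway (20), the death receptor pathway (8) and upstream regulators (19). Between TET2-KO B-1a and B-2 cells, 4 of the 56 tested passed, where 5.82% of all genes did. The median log2 difference of all tested genes of a list was 0.09 to 0.32, beside -0.05 over all genes. In the other BCL2 family list, 0 were higher and 2 were lower in B-1a cells. These were Bmf (log2 difference -2.35, 95% interval -3.67 to -1.03, adjusted p = 0.0370), a BH3-only gene that reached at most 7.59 CPM in any TET2-KO library, and Bnip3 (-1.57, -2.47 to -0.67, adjusted p = 0.0402), which acts in the removal of mitochondria. Among upstream regulators, 2 were higher and 0 lower by the quasi-likelihood test of edgeR. The kinase gene Pim1 was at 34.7, 45.8, 31.6 and 29.7 CPM in B-1a against 18.1, 18.5, 17.8 and 20.7 in B-2 libraries (0.88, 0.49 to 1.27, adjusted p = 0.00832). Myc, which encodes a growth regulator, was at 320.0, 304, 310.2 and 129 CPM against 114, 83.6, 131 and 42.4 (1.49, 0.81 to 2.17, adjusted p = 0.0106), with 1 B-1a library within the range of the B-2 libraries. Of the 20 caspase and mitochondrial pathway genes and the 7 death receptor genes tested, 0 passed.

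In the other comparisons of all libraries, 0 genes of these lists passed by the quasi-likelihood test of edgeR. Between genotypes, 3 of 56 had an unadjusted p under 0.05 in B-1a cells, 2 of 56 in B-1b cells, 1 of 57 in B-2 cells and 0 of 56 in the interaction, and DESeq2 called 0 of them in each. Between TET2-KO B-1b and B-2 cells 7 of 56 had an unadjusted p under 0.05, and DESeq2 called 4 of 62, where it called 12.1% of all genes. Between TET2-KO B-1a and B-1b cells 2 of 56 had an unadjusted p under 0.05, and DESeq2 called 0, beside 141 genes in all. These counts of unadjusted p stand without the share over all genes and are not a result about the lists. With WT 1 and WT 2 of each subset left out, WT B-1a cells differed from B-2 cells in 5 of the 56 genes, where 7.16% of all genes differed. Myc was higher in B-1a cells (log2 difference 1.81, adjusted p = 1.08e-05), and Bnip3 (-2.03, adjusted p = 2.74e-05), Foxo1 (-0.89), Nfkb2 (-0.64) and Casp2 (-0.63) were lower. WT B-1b cells differed from B-2 cells in 6 of 56, where 5.53% of all genes differed, with Myc higher (1.54) and Bnip3 (-1.51), Tnfrsf1a (-0.87), Rel (-0.72), Nfkb2 (-0.63) and Foxo1 (-0.61) lower. WT B-1a and B-1b cells differed in 2 of 56, where 3.22% of all genes differed, with the TNF receptor gene Tnfrsf1a higher (0.74) and the death receptor gene Fas lower (-0.82) in B-1a cells.

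Across the 21 libraries, members were compared with each other and with 8062 genes of at least 10 CPM on average, by the correlation of log2 CPM, as a description of libraries that share subset, depth and cell content. Of the 45 pairs of members, 30 had a positive r, a count that was not made over pairs of other genes. Mcl1 and Bid had the highest (r = 0.86), followed by Mcl1 and Bbc3 (0.73), pairs that each join a pro-survival with a pro-death gene, and Bcl2l1 had its lowest with Bbc3 (-0.63). The genes most like Mcl1 were Cyfip1 (r = 0.96), Myc (0.96) and Twsg1 (0.95). For Bid these were Clic4 (0.97), Atxn10 (0.95) and Ensa (0.95), for Bbc3 Wee1 (0.94), Gramd4 (0.92) and Ski (0.91), and for Bcl2a1b Commd3 (0.95), Acot13 (0.92) and Fdx1 (0.91). For Bax they were Mthfsl (0.90), Nsa2 (0.89) and Mrpl24 (0.88), and for Bcl2 Irag2 (0.86), Gm15848 (0.85) and Appl2 (0.84). For Bcl2l11 they were Mex3c (0.83), Orc4 (0.80) and Qki (0.79), and for Bak1 Pabpc1 (0.83), Arrb1 (0.80) and Trio (0.79). For Bcl2l1 they were Ms4a4c (0.82), Treml2 (0.82) and Blvrb (0.81), and for Pmaip1 Agpat4 (0.79), Trim35 (0.77) and Trmt1l (0.77).

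The members lie on 8 chromosomes in GRCm39. Mcl1 lies on chromosome 3 from 95566099 to 95570487, Bcl2 on chromosome 1 from 106465908 to 106642004, Bid on chromosome 6 from 120868891 to 120893814, and Bcl2a1b on chromosome 9 from 89081262 to 89089880. Bbc3 (16042318 to 16052130) and Bax (45111121 to 45116322) share chromosome 7, and Bcl2l11 (127967958 to 128004467) and Bcl2l1 (152622588 to 152673648) share chromosome 2. Bak1 lies on chromosome 17 from 27238784 to 27247983, and Pmaip1 on chromosome 18. Exon bases of other genes overlap 25.5% of Bak1, 17.7% of Bid, 12.2% of Bax and 6.09% of Bcl2, and 0% of Mcl1, Bcl2l1, Bcl2l11, Bbc3 and Pmaip1. Fragments that overlap more than 1 gene were not counted, which can lower the counts of these genes. Of the stretches of 100 bases in Bid transcripts, 25.5% also occur in Bcl2l13, Gm17812 or Gm6308.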

How the data were processed

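The deposited values are whole counts of fragments for 56953 genes per library, not normalized. The authors obtained them with featureCounts 1.6.1 (GENCODE vM32, no strand, fragments of several places or genes not counted) after fastp trimming and STAR alignment against GRCm39. Library preparation is given as amplification of full-length cDNA in the methods, but the labels name poly-T selection and random hexamers. Symbols came from GENCODE vM39 (56310 matched, 643 not). Depth was 9667187 to 24152518 counts a library, and no pair of the 21 libraries was identical.

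The test was the quasi-likelihood test of edgeR 4.0.16 in R 4.3.3, with TMM scaling, filterByExpr by group and robust dispersions. All p-values were adjusted by Benjamini-Hochberg over all genes tested, at a threshold of 0.05. Genotypes were fitted within a subset, and subsets within a genotype. CPM used 1 TMM scaling of all 21 libraries, and FPKM is CPM per kilobase of the exon length in the files. DESeq2 1.42.0 on all genes, other filters and scalings, the replicate number as a block and each library left out in turn were alternatives. The fits were tested on simulated data.

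The rule for names took all 10 members in every comparison (in fits that leave out libraries, those that passed and the range of the rest). Of each other list it took at most 4 genes per comparison with the smallest adjusted p under 0.05, and per member the 3 genes with the highest r. The members and lists were chosen with earlier results of these data known. Among groups that share at least 3 numbers, every same-numbered pair had an r over 0.1 only between TET2-KO B-1a and B-1b cells (r = 0.27, 0.12 and 0.20), where the block is given. Between WT B-1a and B-1b cells, r was 0.28 and 0.30 for WT 3 and WT 4, and -0.06 and 0.08 for WT 1 and WT 2. Libraries of unlike number were not compared. WT B-1b and B-2 cells (0.58 and 0.37) and B-2 cells of both genotypes (0.20 and 0.32) share only 2 numbers. This pairing comes from the data, since the labels do not state what a number marks. Promoter and protein sequences were not used here.

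The summed level of 1 marker list is not reported here.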

Additional observations from a re-analysis of the deposited data

Results flagged for a closer look

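In groups of 4 libraries, each member's highest and lowest CPM was compared with the others of its group by Dixon's ratio, in 40 groups. Chance alone flags about 1 in 20 groups, and 3 values stood apart. Mcl1 was at 1709 CPM in the library labelled B-1b WT 1, against 1051 to 1122 in the other WT B-1b libraries. This library correlated best with TET2-KO B-1a cells. Bcl2l11 was at 11.3 CPM in B-1a TET2-KO 4, against 42.3 to 44.6 in the other TET2-KO B-1a libraries. Bax was at 174.5 CPM in the same library, against 89.9 to 102 in the others. B-1a TET2-KO 4 also held the lowest Mcl1 (897 CPM) and the lowest Myc (129 CPM) of its group.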

How the results depend on the processing

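Members called were counted again under 15 to 24 alternatives for each comparison. Of single values of members, 1818 kept their direction or stayed uncalled, 29 passed the threshold only under an alternative, 10 lost it and 3 turned: in WT B-1a against B-2 cells without the libraries labelled WT 1 and WT 2, Mcl1 (0.77) and Bbc3 (0.97) by edgeR and Mcl1 (0.77) by DESeq2. Between genotypes, 1 member was called in B-1a cells with no filter on low counts, and 0 in every other alternative, each library left out in turn included. Between TET2-KO B-1a and B-2 cells, 1 was called as reported, 3 by DESeq2 (14.2% of all genes) and 2 without a filter (3.80%). There were 0 with all 21 libraries in one fit (3.45%) and 0 without B-2 TET2-KO 2 and 4 (2.46%). With each library left out, 0 to 4 members were called, beside 608 to 2015 genes in all. Between TET2-KO B-1b and B-2 cells, 2 were called by DESeq2 (12.1%), 1 without a filter (1.94%) and 1 with at least 10 counts in every library (3.70%). Leaving out each library gave 0 to 1 there, beside 177 to 768 genes in all. With the replicate block, 4 members were called between TET2-KO B-1a and B-2 cells, beside 1638 of 18555 genes. Between B-1b and B-2 cells 2 were called, beside 667 of 18555 genes. However, same-numbered libraries did not all deviate together there (r = 0.42, 0.06, -0.01 and 0.27 between B-1a and B-2). In B-1a cells between genotypes the block called 48 genes in place of 7. The replicate block changed no other count of members called. In WT libraries without those labelled WT 1 and WT 2, the counts were 3, 2 and 1 by edgeR and 2, 2 and 1 by DESeq2 for B-1a against B-2, B-1b against B-2 and B-1a against B-1b. The cause of these changes was not tested. The fits without the libraries labelled WT 1 and WT 2 also held fewer libraries. Bak1 and Bcl2l1, with 13 to 60 and 50 to 148 counts a library, had the least precise values.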
